A study of Mus musculus with 22 samples.

Results

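mpkCCD cells are a mouse line that models the principal cell of the kidney collecting duct. Clones of this line that carry a GFP reporter were given dDAVP and sorted by GFP, and the cells sorted as GFP-negative were set against unsorted wild-type (WT) cells that had received no dDAVP. The comparison holds 11 of the 22 RNA-seq libraries of the series. Of these, 8 are GFP-negative libraries, 2 from each reporter clone (C1, C11, C43, C50), treated with dDAVP, and 3 are WT libraries without dDAVP, called vehicle here because the growth protocol names a vehicle arm. A library was placed in its group by its labels, and the comparison itself was picked with earlier results of these data known. A further 3 libraries of unsorted WT cells with dDAVP define which transcripts respond to the hormone analogue, and the 8 GFP-positive libraries of the same clones enter only as a range beside some results.

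All libraries come from the secondary clone 38 of mpkCCDc11 or from reporter clones of mpkCCD cells. The protocol grew the cells on permeable supports for 4 days in complete medium and then moved them to a medium without serum or growth factors that still held dexamethasone. It lists dDAVP at 0.1 or 1 nM on the basolateral side and 24 or 48 hours of treatment, and it does not tie a dose or time to a library. It also mentions forskolin, which no label of these libraries names. Dose and time may therefore differ between the GFP-negative libraries and WT dDAVP, which bears on each comparison of them. The labels call the 4 clones GFP reporter cells and give neither the promoter that drives GFP nor the place where it was inserted, and each is 1 clone. A GFP-negative library therefore differs from a WT vehicle library in dDAVP, in clone, in carrying a reporter and in having been sorted, and these cannot be told apart. Nothing in the labels says that the replicates of a group came from separate cultures, so p-values measure only the spread between these libraries, which may be technical.

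Vasopressin acts on principal cells through the V2 receptor (Avpr2), which couples to Gs and adenylyl cyclase. Cyclic AMP then activates protein kinase A, which drives the water channel aquaporin-2 (Aqp2) to the apical membrane and, over hours to days, raises Aqp2 transcription. dDAVP (desmopressin) is a vasopressin analogue that prefers the V2 receptor. Cells of one culture can carry very different amounts of Aqp2 under the same stimulus, and the title of the series names that variability as its subject. The question taken up here is which dDAVP-responsive transcripts were still raised in the cells that had fallen into the GFP-negative gate, clone by clone.

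Values are TPM, a transcript abundance scaled for length and library size, and the reads behind them are not known, so no depth can be given. The 11 libraries had between 17177 and 30855 genes above 0 TPM and between 12293 and 14341 genes at 1 TPM or more. Mitochondrial transcripts took between 1.07% and 1.57% of TPM. Libraries of 1 group correlated at Pearson r of 0.944 to 0.976 over the genes tested (7 pairs), and libraries of different groups at 0.910 to 0.972 (48 pairs). One pair stood apart: the 2 C50 libraries differed by at least 1 log2 unit at 2103 of 10280 genes with a mean of 5 TPM or more (20.5%), whereas the other 6 pairs did so at 90 to 179 genes (0.875% to 1.74%). C50 replicate 1 also had the highest share of ribosomal protein transcripts, 8.32%, against at most 5.34% in the other 10 libraries. The fit shares 1 estimate of the spread over all groups, so this pair bears on every clone's calls. How the main results changed without C50 replicate 1 is given below. Single genes are given from the fit of all 11 libraries unless stated.

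The keratins of simple epithelium were abundant: Krt8 and Krt18 stood at 2733 to 3385 TPM and 7057 to 8474 TPM in the GFP-negative libraries. Of the principal cell list, 21 of 29 genes passed the filter on low values. Markers of other cell types were summed: the 9 fibroblast markers summed to 0.01 to 3.52 TPM in the GFP-negative libraries and 0.19 to 0.92 TPM in vehicle, the 8 endothelial markers to 0.16 to 5.10 against 0.69 to 2.42, and the 8 markers of the thick ascending limb and distal convoluted tubule to 0.38 to 3.23 against 0.61 to 3.01. The 11 proximal tubule markers summed to 0.94 to 15.4 TPM against 10.3 to 17.0 in vehicle, with 8 of them under 1 TPM in all 11 libraries. The 9 macrophage markers summed to 60.2 to 116 TPM against 87.4 to 94.1, with 5 of 9 under 1 TPM in all 11 libraries. Broader lists summed higher: 21 intercalated cell genes, which collecting duct lines share in part, to 237 to 373 TPM against 411 to 436 in vehicle, with 9 of them under 1 TPM in all 11 libraries, and 30 mesenchymal genes to 661 to 1477 TPM against 996 to 1257, with 15 under 1 TPM. Rhcg, 1 of the 21 intercalated cell genes, had a mean of 88.5 TPM in vehicle and 0.2 to 1.015 TPM in the clones. The part of these cell types in the results below was not tested. Of the principal cell genes, Aqp4 was low in both groups, at 1.88 to 2.32 TPM in vehicle and 0.00 to 2.92 in the GFP-negative libraries.

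GFP transcript, the reporter itself, was low but present in the GFP-negative cells. It was 0.57, 0.57 and 0.00 TPM in the vehicle libraries, 11.6 and 13.3 TPM in C1, 9.84 and 10.6 TPM in C11, 17.6 and 15.2 TPM in C43, and 5.31 and 10.9 TPM in C50. Every GFP-negative library was above every vehicle library, and all were far under the 1065 to 1567 TPM of the GFP-positive libraries of the same clones. The average of the 4 clone means lay 3.18 ± 0.22 (SE) log2(TPM + 1) units above vehicle (adjusted p = 0.000166, limma). A two-sided exact permutation of the library labels, 8 against 3, gave p = 0.006061, and one of the 4 clone means against the 3 vehicle libraries gave p = 0.028571, each the smallest these designs can give. Adjusted over the 4 permutation tests run on GFP and Aqp2, these were 0.0242 and 0.0571. The WT libraries are not labelled as reporter cells, so a higher GFP value in the clones was set by the design. GFP also passed the filter of 1 mean TPM only through the clone libraries, as its vehicle mean was 0.38 TPM. Nothing is therefore read from the p-values of GFP.

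Aqp2 followed the clone. In vehicle it was 64.1, 74.9 and 68.4 TPM, and in WT cells with dDAVP it was 2820, 3025 and 2759 TPM. The 2 GFP-negative libraries of C1 held 72.6 and 66.5 TPM, which overlaps vehicle. Those of C11 held 263 and 236 TPM, those of C43 held 1568 and 1680 TPM, and those of C50 held 1232 and 1254 TPM, all above vehicle and all under WT dDAVP. Aqp2 transcript was thus raised in the GFP-negative cells of 3 of the 4 clones. In limma, C1 changed by 0.01 ± 0.10 (SE) log2 units from vehicle (adjusted p = 0.969), C11 by 1.84 (adjusted p = 5.34e-05), C43 by 4.54 (adjusted p = 5.67e-08) and C50 by 4.15 (adjusted p = 2.28e-07), against 5.36 in WT. Without C50 replicate 1 the value of C50 was 4.16. The clones differed from each other (F-test of limma, adjusted p = 3.52e-07). Because C1 sat at the vehicle level, the exact permutation test over libraries gave p = 0.0545 for the average change of 2.63 log2 units, and the one over clone means gave p = 0.0857 (adjusted over the 4 permutation tests, 0.0727 and 0.0857). The GFP-positive libraries spanned 2008 to 7254 TPM.

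The Aqp2 promoter is shown because the series is about this gene, and that of Pde4b, a cyclic AMP phosphodiesterase, because Pde4b rose in every clone. Each line gives the 250 bases before the RefSeq transcription start of GRCm38.p6 on the plus strand, at chr15:99578806-99579055 for Aqp2 and at chr4:102421305-102421554 for 1 of the 4 Pde4b promoters, the only one of them that holds the motif marked. Capitals mark CGTCA, the reverse complement of TGACG, the short core of the cyclic AMP response element, which begins 211 bases before the start in Aqp2 and 34 bases before it in Pde4b. From 250 bases before to 50 after the start, this core was in 31.6% of promoters of all tested genes.
Aqp2: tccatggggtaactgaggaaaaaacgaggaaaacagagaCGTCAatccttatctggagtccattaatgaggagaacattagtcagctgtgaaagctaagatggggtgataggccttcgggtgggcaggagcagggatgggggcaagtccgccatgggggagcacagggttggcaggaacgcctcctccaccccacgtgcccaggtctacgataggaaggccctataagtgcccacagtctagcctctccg
Pde4b: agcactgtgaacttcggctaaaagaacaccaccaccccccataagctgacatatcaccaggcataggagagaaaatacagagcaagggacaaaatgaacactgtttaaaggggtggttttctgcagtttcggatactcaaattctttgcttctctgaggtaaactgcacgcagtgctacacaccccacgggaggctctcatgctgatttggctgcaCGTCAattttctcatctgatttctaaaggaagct

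Over all genes, 5.06% were called by the average of the clones, 7.49% in C1, 1.71% in C11, 13.6% in C50 and 4.05% in C43. Of the calls, 37.6% were higher by the average, 45.9% in C1 and 26.6% in C50. Median-ratio scaling, which removes a shift of the median gene, moved these shares to 56.0%, 65.4% and 49.5%, and quantile normalization to 50.6%, 56.9% and 48.9%, while the shares of C11 and C43 moved by less.

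To ask which responses persisted, dDAVP-responsive transcripts were taken from the unsorted WT cells, as genes called at an adjusted p under 0.05 by limma with a change of at least 1 log2 unit. In that comparison 13494 genes were tested, of which 8.88% were called, 2.37% higher and 6.51% lower with dDAVP. The responsive set holds 85 genes that rose and 44 that fell. Of the 85, the 3 genes Atp4a, Gm37428 and Ugt1a1 were under the filter of 1 mean TPM over the 11 libraries, which left 82, of which 7 have a provisional symbol. The clone comparisons and the WT comparison use the same 3 vehicle libraries, so counts over this set describe it and are not a test.

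GFP-negative cells of each clone still raised part of the set. C43 raised 60 of the 82 genes (73.2%), beside 2.03% of all 13302 genes called higher in that clone. C11 raised 43 (52.4%), beside 0.917% of all genes. C1 raised 34 (41.5%), beside 3.44%, and C50 raised 33 (40.2%), beside 3.62%. With C50 replicate 1 left out, more genes of the set were called in C1, C11 and C43 and fewer in C50. Calls over all genes moved in the same directions, and by a larger factor. C43 raised the most in both fits. The order of C1 and C50, which differed by 1 gene, was not stable: C1 raised 50 and C50 raised 59 under median-ratio scaling, and 49 and 52 under quantile normalization. Each scaling defined its own, larger responsive set, so these counts are not out of the same 82 genes. Among the genes a clone raised, the median change was 1.39 log2 units in C1, 1.44 in C11, 1.55 in C43, while C50 had 1.39. Leaving out a library of the clone itself lowered the count to 21 and 20 in C1, 19 and 18 in C11, and 35 and 36 in C43. In C11, leaving out vehicle replicate 1, 2 or 3 gave 24, 28 and 23.

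Over all 82 genes, called or not, the median change from vehicle was 0.58 log2 units in C1, 1.01 in C11, 1.32 in C43, while C50 had 0.44, against 1.39 in WT cells. The median of all genes tested was -0.15 in C1, -0.06 in C11, -0.13 in C43, while C50 had -0.29, and -0.16 in WT cells, and no value is corrected for it. In 30 genes all 8 libraries lay above all 3 vehicle libraries, beside 2.14% of all genes. By the average of the 4 clones, 50 of the 82 rose and none fell, beside 1.9% of all genes called higher and 3.16% lower, and median-ratio scaling, under which the responsive set in WT cells grew from 85 to 118 genes, gave 80. Leaving out vehicle replicate 1 or 3 gave 32 and 33. At least 1 clone raised 69 of the 82 (84.1%), beside 7.28% of all genes. The number of clones with a higher call was 4 for 16 genes, 3 for 18, 2 for 17, 1 for 18 and 0 for 13.

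**Figure D1:**
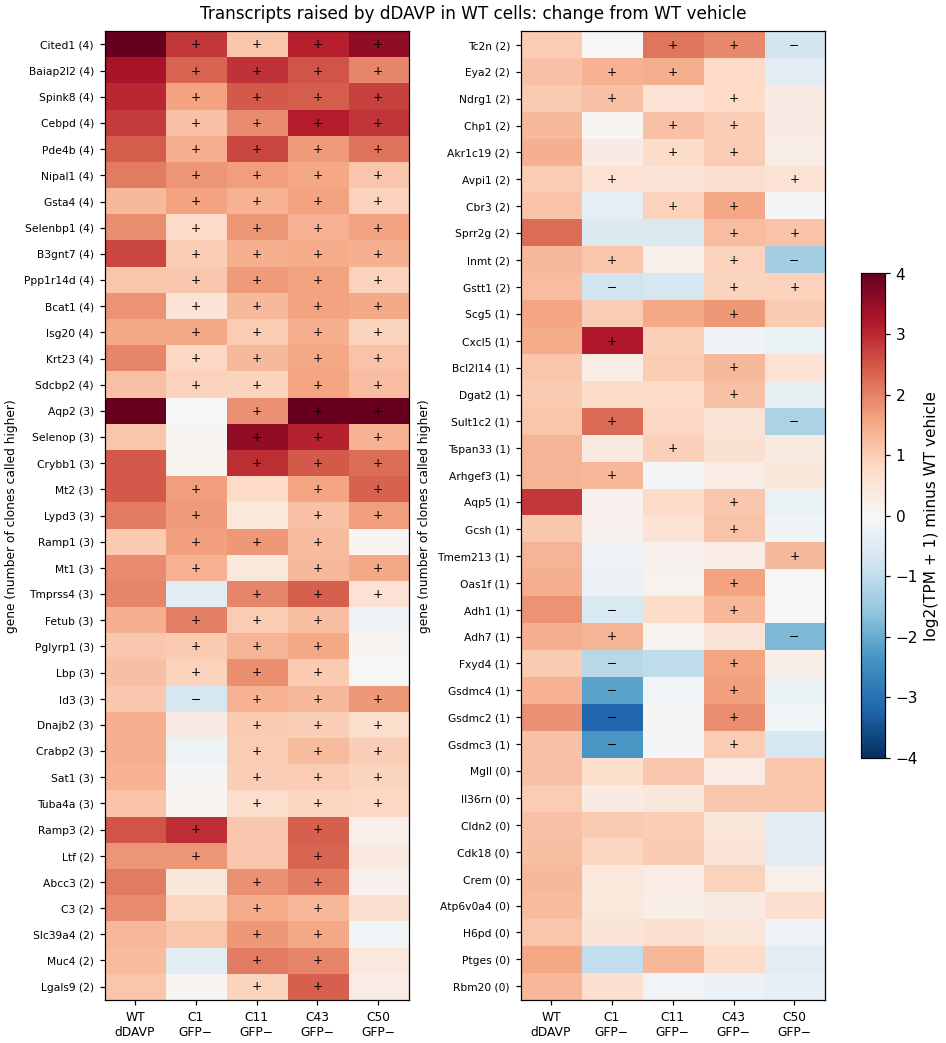
Change of 73 dDAVP-responsive transcripts with settled symbols from WT vehicle, on the log2(TPM + 1) scale, in WT cells with dDAVP and in GFP-negative cells of the 4 clones. Plus and minus signs mark limma calls in a clone, numbers in parentheses count the clones called higher, and colours stop at 4 units, which Aqp2 exceeds in WT cells, C43 and C50 and Cited1 in WT cells. The C43 column carries the most plus signs, and minus signs occur in the C1 and C50 columns.

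How far a raised transcript had come was read from a second comparison, of the GFP-negative libraries with WT dDAVP, in which 13263 genes were tested. C1 was called short of the WT dDAVP level at 42 of the 82 genes, beside 3.17% of all genes called lower. C50 was short at 46, beside 3.02%, C11 at 23, beside 0.746%, and C43 at 9, beside 0.679%. When C50 replicate 1 was dropped, C1 was short at 49, beside 7.6%, C50 at 47, beside 2.08%, C11 at 32, beside 1.39%, and C43 at 23, beside 2.14%. In C43, 54 genes were above vehicle and not called short of WT dDAVP, beside 2.02% of the 13053 genes tested in both comparisons, whereas this held for 37 genes in C11, beside 0.889%, 23 in C1, beside 3.41%, and 22 in C50, beside 3.59%. With that library dropped it was 51 in C43, beside 6.43%, 39 in C11, beside 2.15%, 23 in C1, beside 7.61%, and 15 in C50, beside 1.42%. A missed call does not show that the level was reached. Both calls at once, an intermediate level, held for 11 genes each in C1 and C50, beside 0.0843% and 0.0996% of all genes, and 6 each in C11 and C43, beside 0.046% each. These counts depended on C50 replicate 1: without it they were 20 in C1, beside 0.206%, 17 each in C11 and C43, beside 0.137% and 0.183%, and 10 in C50, beside 0.0839%.

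**Figure D2:**
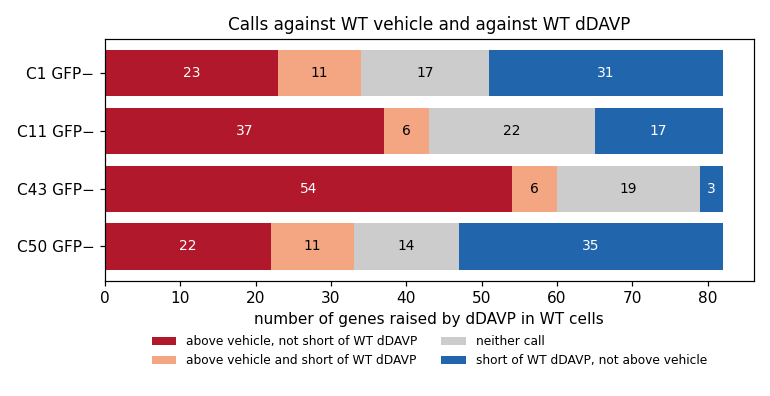
Number of dDAVP-responsive transcripts, of 82, in each class of call per clone: above WT vehicle, short of WT dDAVP, both or neither (limma, adjusted p under 0.05). The bar of C43 is mostly above vehicle and not short of WT dDAVP, 54 genes (51 without C50 replicate 1), and those of C1 and C50 hold 31 and 35 genes that were short of WT dDAVP and not above vehicle.

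The 16 genes raised in all 4 clones, beside 0.226% of all genes, included B3gnt7, Baiap2l2, Bcat1, Cebpd, Cited1, Gsta4, Isg20, Krt23, Nipal1, Pde4b, Ppp1r14d, Sdcbp2, Selenbp1, Spink8 and the provisional Gm4610. The number of genes called in all 4 clones was 8 without vehicle replicate 1, 9 without vehicle replicate 3, 8 and 6 without each C1 library, and 9 and 7 without each C11 library. Without C50 replicate 1, 12 of the 15 settled symbols were still raised in all 4 clones. Gsta4, Nipal1 and Ppp1r14d were not, and Lypd3, Mt2 and Tspan33 joined them. Baiap2l2, Pde4b and Selenbp1 were called in all 4 clones under each of 21 alternative settings. Cited1, the most strongly raised of the group, kept all 4 calls in 8 of them. The 21 settings do not include clone means, leaving out a clone, or only libraries with more genes detected. Those alternatives cannot give 4 clone calls.

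Among the regulators, Cited1, a coactivator that binds CBP and p300, went from 1.04, 1.25 and 0.70 TPM in vehicle to 13.6 and 12.7 in C1, 3.04 and 3.58 in C11, 15.7 and 16.7 in C43, and 26.3 and 18.7 in C50. WT cells with dDAVP held 37.5 to 39.6 TPM. All 8 libraries were above vehicle and all were below WT dDAVP. The change from vehicle averaged 2.65 ± 0.15 (SE) log2 units (adjusted p = 5.19e-05) and differed between clones (adjusted p = 0.000823), with C11 lowest at 1.12. The order of the clones was not that of Aqp2: C1, whose Aqp2 sat at vehicle, had more Cited1 than C11.

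Cebpd, a C/EBP transcription factor, was 2.82, 3.69 and 3.73 TPM in vehicle. It was 8.64 and 9.20 TPM in C1, 17.8 and 12.8 in C11, 35.3 and 41.2 in C43, and 35.6 and 27.1 in C50, against 28.4 to 31.0 with dDAVP in WT cells. C43 stood above the WT dDAVP libraries and C50 around them, and C1 fell short of it by 1.61 log2 units (adjusted p = 0.00105). Id3, a dominant-negative helix-loop-helix protein, rose in 3 clones and fell in C1, as described further on.

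Pde4b feeds back on the pathway by hydrolysing cyclic AMP. It was 7.20, 5.11 and 5.63 TPM in vehicle, 18.5 and 17.5 in C1, 41.5 and 44.2 in C11, 19.2 and 23.9 in C43, and 29.7 and 31.0 in C50, against 32.3 to 43.9 in WT with dDAVP. No GFP-negative library overlapped vehicle. The average change was 2.00 ± 0.12 (SE) log2 units (adjusted p = 7.24e-05), C11 had the highest level of the 4 clones, and C1 was the one clone called short of WT dDAVP (adjusted p = 0.00802). In the same libraries Crem, whose short ICER forms repress cyclic AMP-driven transcription, did not pass the test in any clone. It was 11.2 to 12.9 TPM in vehicle, 27.4 to 34.1 in WT with dDAVP, and 9.99 to 23.5 over the 8 GFP-negative libraries.

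Among the effectors, Baiap2l2 encodes an I-BAR protein that shapes actin-rich membranes. It was 6.39, 11.7 and 9.11 TPM in vehicle, 44.3 and 52.3 in C1, 64.3 and 78.7 in C11, 50.4 and 61.3 in C43, and 31.6 and 42.9 in C50, against 85.8 to 110 in WT with dDAVP. Its average rise of 2.42 ± 0.18 (SE) log2 units (adjusted p = 0.000227) was, after that of Cited1, the largest among these 16 genes. The F-test gave no call between clones (adjusted p = 0.149).

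Spink8, a Kazal-type serine protease inhibitor, was 9.30, 14.3 and 11.8 TPM in vehicle. It stood at 30.2 and 45.6 TPM in C1, 72.0 and 65.7 in C11, 57.9 and 76.1 in C43, and 96.96 and 70.4 in C50, against 96.7 to 109 in WT with dDAVP. The lowest GFP-negative library was C1 replicate 1, still above each vehicle library.

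Selenbp1, a selenium-binding protein with methanethiol oxidase activity, was the most abundant of the group. It went from 221, 262 and 232 TPM in vehicle to 389 and 418 in C1, 808 and 799 in C11, 590 and 654 in C43, and 730 and 709 in C50. B3gnt7, a glycosyltransferase of keratan sulfate synthesis, rose from 25.9 to 33.6 TPM in vehicle to 55.1 to 89.1 TPM in the 8 libraries, and remained under the 164 to 229 TPM of WT dDAVP in each clone. Of the 16 genes, 9 differed between clones by the F-test, beside 9.48% of all genes.

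**Figure D3:**
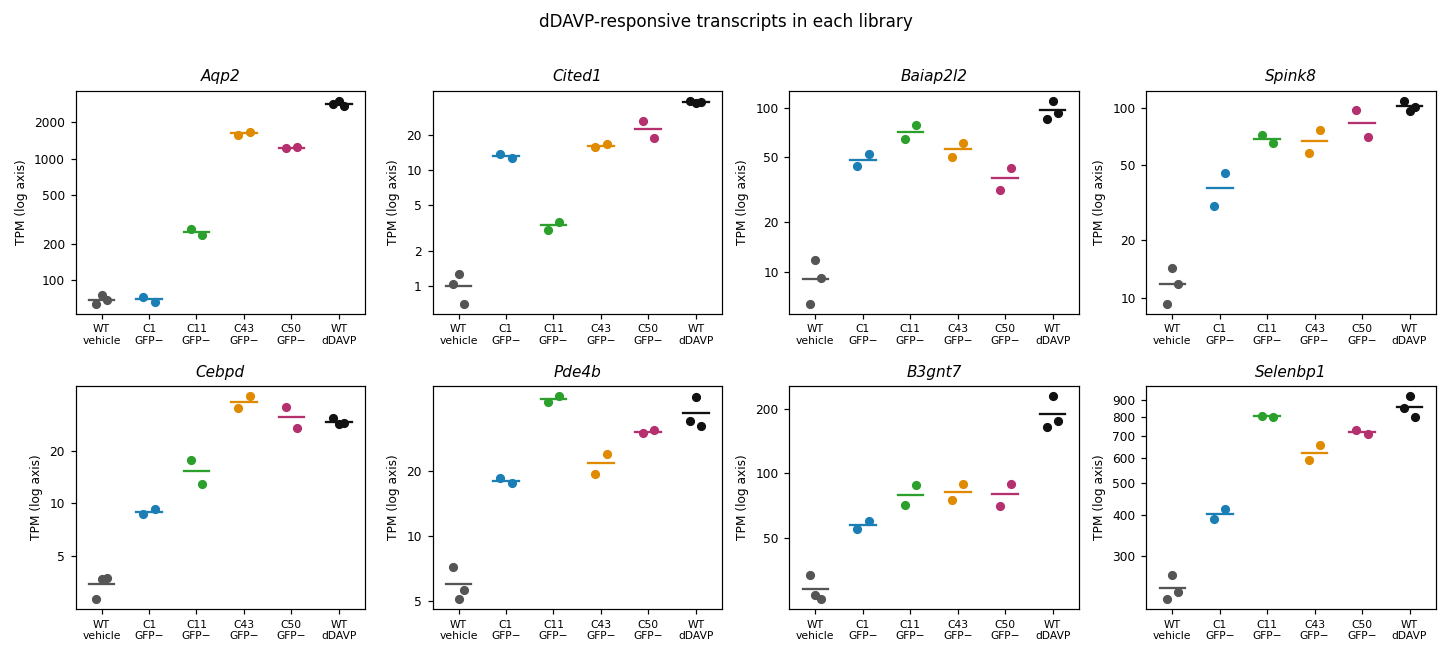
TPM of Aqp2 and of 7 transcripts raised in all 4 clones, in each library of WT vehicle, the 4 GFP-negative clones and WT dDAVP. The axes are logarithmic, points are libraries and bars are group means. Aqp2 in C1, 72.6 and 66.5 TPM, overlaps vehicle, while the other 7 transcripts are above vehicle in all 8 GFP-negative libraries.

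Of the 82 genes, 57 differed between the 4 clones by the F-test (69.5%), beside 9.48% of all genes, and 59 without C50 replicate 1, beside 18.8%. A rise in C11, C43 and C50 but not in C1 was shared by 10 genes, beside 0.128% of all genes, among them Aqp2, Crabp2, Crybb1, Dnajb2, Id3, Sat1, Selenop, Tmprss4 and Tuba4a. The F-test called 9 of these 10. Tmprss4, a membrane serine protease, was 25.0 to 30.7 TPM in vehicle, 17.1 and 23.9 in C1, 102 and 118 in C11, 143 and 151 in C43, and 40.6 and 41.9 in C50. C1 lay below vehicle without passing the test (adjusted p = 0.156), and C11 and C43 lay near or above the 105 to 113 TPM of WT dDAVP. Selenop, a secreted selenium carrier, reached 41.4 and 42.1 TPM in C11 and 28.6 and 31.3 in C43, above the 6.15 to 7.74 TPM of WT cells with dDAVP, from 2.05 to 3.75 TPM in vehicle. In C50 without replicate 1, calls were lost, among them those of Crabp2, Dnajb2 and Tmprss4.

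A higher call in C43 and in no other clone, which 0.647% of all genes had, was found for 11 genes: Adh1, Aqp5, Bcl2l14, Dgat2, Fxyd4, Gcsh, Gsdmc2, Gsdmc3, Gsdmc4, Oas1f and Scg5, of which 9 differed between clones by the F-test. Bcl2l14 and Scg5 did not (adjusted p = 0.134 and 0.342), and Scg5 lay above vehicle by 0.99 to 1.55 log2 units in the other clones without passing the test. Aqp5, a water channel found mainly in glands and lung, was 13.0, 8.21 and 11.0 TPM in vehicle and 79.8 to 83.4 in WT with dDAVP. GFP-negative cells held 22.5 and 24.1 TPM in C43, 20.3 and 17.0 in C11, 10.7 and 13.5 in C1, and 6.89 and 10.7 in C50. Even the C43 rise, 1.07 log2 units (adjusted p = 0.038), left Aqp5 short of WT dDAVP, and the GFP-positive libraries, at 9.46 to 27.8 TPM, did not come near it either. A call in C11 and C43 alone, which 0.195% of all genes had, was found for 9 further genes, among them the transporter Abcc3, the lectin Lgals9 and the mucin Muc4. The F-test called 7 of the 9. Lgals9 was 144 and 154 TPM in C43, above the 59.5 to 63.8 of WT dDAVP, and 53.9 and 50.9 in C11, from 25.1 to 29.6 in vehicle.

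Some responsive genes went the other way. C1 had 7 of the 82 below vehicle, beside 4.05% of all genes called lower in C1: Gsdmc2, Gsdmc3, Gsdmc4, Adh1, Gstt1, Id3 and Fxyd4. With C50 replicate 1 left out, the share of the 82 called lower was under that of all genes in C1 and C11. It was then a little over it in C50. Gsdmc2, of the pore-forming gasdermin C group, was 13.2 to 15.0 TPM in vehicle, 0.54 and 0.87 in C1, 15.7 and 13.7 in C11, 45.8 and 63.8 in C43, 16.1 and 10.5 in C50, and 47.0 to 60.1 in WT with dDAVP. C43 lay near the WT dDAVP libraries, C11 and C50 overlapped vehicle, and C1 was lower by 3.16 log2 units (adjusted p = 0.000195). The F-test between clones gave an adjusted p of 5.35e-05. The gasdermin C genes are close paralogs, and reads may have been shared among Gsdmc2, Gsdmc3 and Gsdmc4. Id3 was 45.6 and 45.4 TPM in C1 against 73.9 to 78.0 in vehicle, and 177 to 294 TPM in the other 3 clones. Fxyd4, a regulator of the sodium pump in the collecting duct, was 134 and 107 TPM in C1 and 133 and 122 in C11, against 236 to 278 in vehicle, and 717 and 836 in C43. The 2 C50 libraries lay far apart for Fxyd4, at 433 and 209 TPM.

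C50 had 4 of the 82 below vehicle, a smaller share than the 10% of all genes called lower in C50: Adh7, Inmt, Sult1c2 and Tc2n. With C50 replicate 1 left out, the first 3 were still called lower, and Tc2n was not (adjusted p = 0.185). In C1 these first 3 rose. Sult1c2, a sulfotransferase, was 9.94 to 13.7 TPM in vehicle, 56.0 and 63.4 in C1, 20.4 and 22.3 in C11, 14.9 and 19.1 in C43, and 4.02 and 4.55 in C50. Adh7, an alcohol and retinol dehydrogenase, was 23.2 to 27.7 TPM in vehicle, 60.2 and 70.7 in C1, 26.7 and 28.2 in C11, 34.3 and 38.3 in C43, and 5.32 and 7.74 in C50. Inmt, a methyltransferase, was 447 to 533 TPM in vehicle, 990 and 1075 in C1, and 199 and 164 in C50. The clone order C1 highest, C50 lowest was shared by these enzymes, with F-test adjusted p of 9.65e-05 for Sult1c2, 0.000103 for Adh7 and 4.37e-05 for Inmt.

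Ramp3, a partner of the calcitonin receptor family, had a similar order. It was 0.98 to 1.41 TPM in vehicle, 14.1 and 18.1 in C1, 4.35 and 3.11 in C11, 11.1 and 9.96 in C43, and 2.20 and 1.04 in C50. It was called in C1 and C43. The chemokine Cxcl5 was raised by C1 alone, to 15.9 and 14.7 TPM from 0.60 to 0.95, above the 3.57 to 4.18 TPM of WT dDAVP, and the other 3 clones held 0.26 to 2.70 TPM. Metallothioneins Mt1 and Mt2, which bind zinc and are near-identical in part, rose in C1, C43 and C50. Mt2 went from 133 to 166 TPM in vehicle to 484 and 464 in C1, 454 and 441 in C43, and 1064 and 535 in C50, and was 254 and 257 TPM in C11, where it did not pass the test.

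**Figure D4:**
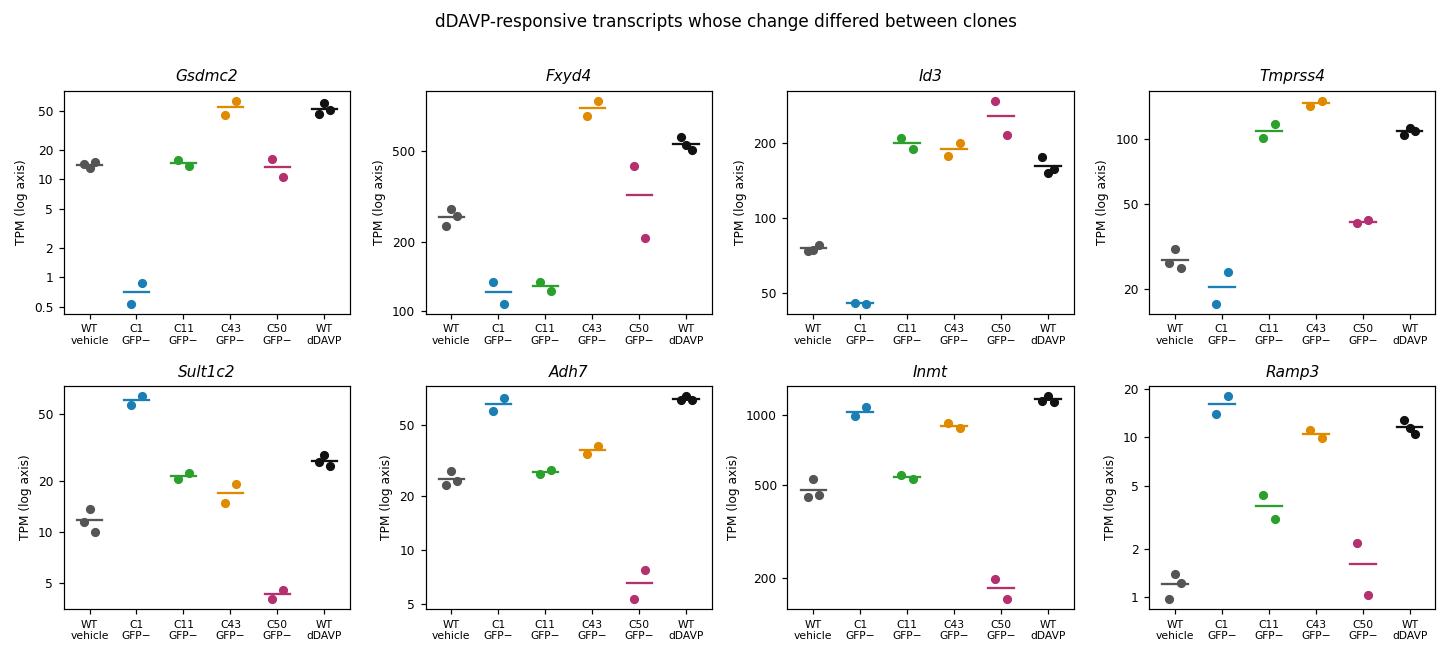
TPM of 8 dDAVP-responsive transcripts whose change differed between clones, in each library. The axes are logarithmic, points are libraries and bars are group means. Gsdmc2 and Id3 in C1 and Sult1c2, Adh7 and Inmt in C50 lie below WT vehicle, while for each of these 5 another clone lies near or above WT dDAVP: C43 for Gsdmc2, C11, C43 and C50 for Id3, and C1 for Sult1c2, Adh7 and Inmt.

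No clone raised 13 of the 82 genes: Atp6v0a4, Cdk18, Cldn2, Crem, H6pd, Il36rn, Mgll, Ptges, Rbm20 and 4 with provisional symbols. With clone C50 left out, when 7.76% of all genes were called higher in C1, 2.3% in C11 and 6.58% in C43, Cdk18 was called higher in C1, C11 and C43, Cldn2 in C1, Crem in C1 and C43, Il36rn in C43, Ptges in C11 and Rbm20 in C1. Atp6v0a4, H6pd and Mgll had no call in either fit. Atp6v0a4, a subunit of the proton pump, was 14.7 to 16.1 TPM in vehicle, 31.6 to 50.7 in WT with dDAVP, and 16.2 to 30.0 over the GFP-negative libraries, each of which was above vehicle. Ptges, prostaglandin E synthase, was 5.04 to 10.5 TPM in vehicle, 3.49 and 3.56 in C1, 23.4 and 19.3 in C11, 14.4 and 13.7 in C43, and 6.80 and 4.35 in C50.

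Set against WT dDAVP, 4 of the 82 genes were called short in every clone: Aqp2, Aqp5, B3gnt7 and Cited1, beside 0.098% of all genes called lower in all 4 clones. When C50 replicate 1 was dropped, it was 10 genes, beside 0.232%. Aqp2 fell short by 5.35 log2 units in C1, 3.52 in C11, 0.82 in C43, while C50 had 1.20. Avpr2, the receptor for dDAVP, was also called short in every clone. It was 172, 183 and 172 TPM in vehicle, 244 to 282 in WT with dDAVP, and 137 and 141 in C1, 179 and 173 in C11, 154 and 177 in C43, and 148 and 155 in C50. No clone was called different from vehicle, and the GFP-positive libraries held 324 to 385 TPM. In WT cells Avpr2 rose by 0.57 log2 units (adjusted p = 0.00722), under the size asked of the responsive set. At the other end, Gsta4, Nipal1, Ppp1r14d, Sdcbp2 and Gm4610 were raised in all 4 clones and called short in none. All 4 calls were kept in 14 of 21 alternative settings by Gsta4, 10 of 21 by Nipal1, 9 of 21 by Sdcbp2 and 8 of 20 by Ppp1r14d.

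Of the 44 genes that fell with dDAVP in WT cells, all passed the filter, and 14 have provisional symbols. C50 had 19 of them below vehicle (43.2%), beside 10% of all genes. C43 had 10 (22.7%), beside 2.02%, C1 had 9 (20.5%), beside 4.05%, and C11 had 3 (6.82%), beside 0.789%. Without C50 replicate 1 the order turned: C43 had 23, beside 12.2%, C1 had 19, beside 15.3%, C50 had 8, beside 2.82%, and C11 had 8, beside 2.99%. None was called higher in any clone in the fit of all 11 libraries, and 24 were called in no clone. At least 1 clone lowered 20 (45.5%), beside 13.5% of all genes. In 18 of the 44, all 8 libraries lay below all 3 vehicle libraries, beside 7.62% of all genes. The median over the 44 was -0.67 log2 units in C1, -0.66 in C11, -0.93 in C43, while C50 had -1.21, against -1.17 in WT cells, and the clone mean was under the vehicle mean for 39 to 43 of them, called or not.

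All 4 clones lowered Ankle1, a nuclease, and Rasl11a, a small GTPase. Rasl11a went from 58.6, 78.2 and 68.8 TPM in vehicle to 35.5 and 32.6 in C1, 18.1 and 18.8 in C11, 14.2 and 15.5 in C43, and 22.8 and 18.3 in C50, against 23.3 to 25.4 in WT with dDAVP. With C50 replicate 1 left out, the C50 call of Ankle1 was lost (adjusted p = 0.0648). Fras1, an extracellular matrix protein of the epithelial basement membrane, was 36.6 to 47.4 TPM in vehicle, 16.6 and 22.5 in C1, 26.0 and 23.2 in C11, 9.96 and 13.5 in C43, and 2.93 and 4.61 in C50. It fell in C1, C43 and C50, as did Col4a4, Mylk and Upk3a. Lmnb1, a nuclear lamin, which fell in WT cells from 22.01 to 39.4 TPM to 9.74 to 11.6, was spread over 11.0 to 42.0 TPM in the GFP-negative libraries and was called in none of the clones.

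Genes that changed in every clone were not all dDAVP-responsive. Of the 30 genes higher than vehicle in all 4 clones, 16 belong to the responsive set (53.3% of the 30 and 19.5% of the 82), and 28 were called higher in WT cells with dDAVP at any size, beside 2.37% of all genes. Both calls use the same 3 vehicle libraries, so nothing is read from this count. The other 2 were GFP, which was under the filter in WT cells, and Spag1, which was not called. Those with WT changes under 1 log2 unit included Krt8 and Krt18, the keratins of simple epithelium, Gpx1, a glutathione peroxidase, Rab11a, a GTPase of recycling endosomes that carry aquaporin-2, and Nfkbia, the inhibitor of NF-kB. Krt18 went from 5507 to 5933 TPM in vehicle to 7057 to 8474 TPM. Nfkbia went from 315 to 334 TPM to 460 to 590 TPM, above the 405 to 419 TPM of WT dDAVP. The pseudogene Krt8-ps was called too, and reads may have been shared between it and Krt8.

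Of the 19 genes lower than vehicle in all 4 clones, beside 0.143% of all genes, 2 belong to the responsive set and 12 were called lower in WT cells with dDAVP, beside 6.51% of all genes and again with shared vehicle libraries. There were 50 genes lower in all 4 clones (0.374%) without C50 replicate 1, and 37 genes higher (0.277%). The deepest fall was in Rhcg, an ammonia channel of collecting duct cells. It was 89.1, 97.2 and 79.1 TPM in vehicle and 86.4, 111 and 93.1 TPM in WT with dDAVP, and it was 0.00 and 0.40 in C1, 0.90 and 0.57 in C11, 0.13 and 0.36 in C43, and 0.55 and 1.48 in C50. All 8 libraries lay far below every library of both WT groups. The average change from vehicle was -5.90 ± 0.20 (SE) log2 units (adjusted p = 1.88e-06), and WT cells showed 0.12 with dDAVP (adjusted p = 0.487). GFP-positive libraries of the same clones held 0.03 to 2.04 TPM.

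Ptger1, the EP1 prostaglandin E2 receptor, was 69.5, 84.2 and 72.6 TPM in vehicle, 33.9 to 48.2 in WT with dDAVP, and 7.22 to 14.2 in the 8 GFP-negative libraries. Its average change was -2.86 ± 0.15 (SE) log2 units (adjusted p = 5e-05), and each clone was also called lower than WT dDAVP. Here the GFP-positive libraries stood higher, at 16.1 to 42.6 TPM. Hsd11b2, which inactivates glucocorticoids and so protects the mineralocorticoid receptor, was 26.3 to 32.8 TPM in vehicle and 22.8 to 31.3 in WT with dDAVP. It was 9.90 and 11.6 TPM in C1, 4.46 and 4.66 in C11, 7.90 and 9.28 in C43, and 16.0 and 20.2 in C50. Ackr3, a scavenging chemokine receptor, was 13.0 to 15.8 TPM in vehicle and 0.46 and 0.85 in C1, with 2.24 to 7.71 in the other clones. When C50 replicate 1 was dropped, the C50 calls of Hsd11b2 (adjusted p = 0.162) and Ackr3 (adjusted p = 0.107) were lost. Rhcg, Ptger1, Gm10557 and Gm35585 were the 4 genes called lower in all 4 clones against both WT groups. GFP, which WT cells are not labelled as carrying, was the 1 called higher. Against WT dDAVP alone, 0.0151% of all genes were called higher in all 4 clones.

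**Figure D5:**
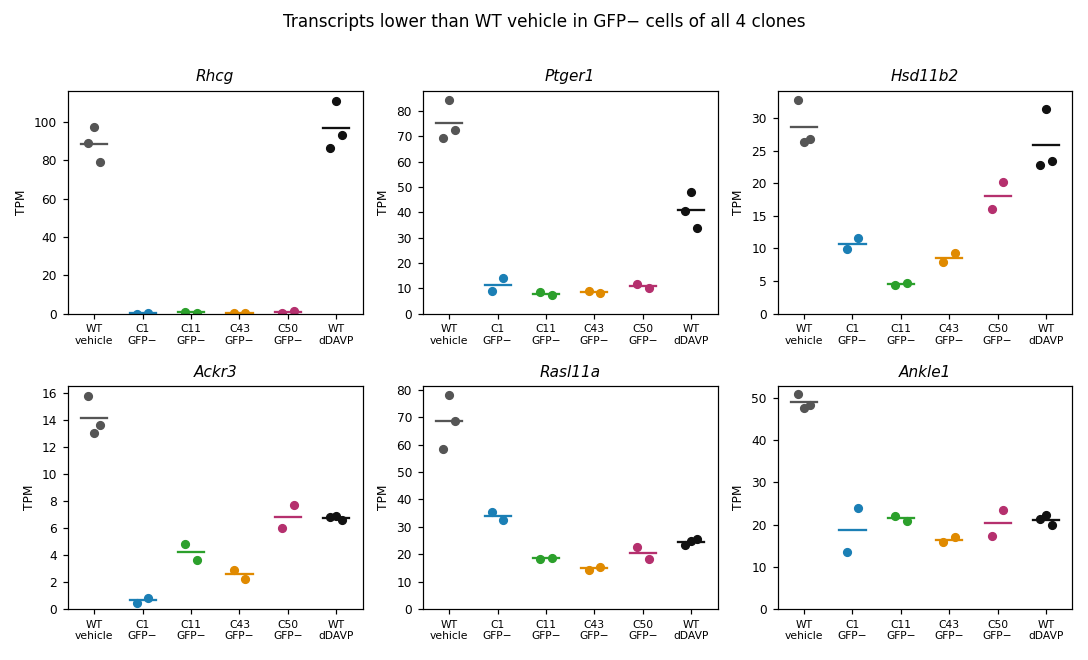
TPM of 6 transcripts lower than WT vehicle in GFP-negative cells of all 4 clones, in each library, on linear axes from 0. Points are libraries and bars are group means. Rhcg and Ptger1 are below both WT groups in all 8 GFP-negative libraries, whereas Rasl11a and Ankle1 are near or below WT dDAVP in most of them.

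Of 43 listed genes of the signalling chain from the receptor to CREB, 34 were tested by the average of the clones: Gng12, a G protein gamma subunit, and Pde4b rose, and Crtc3, a CREB coactivator, fell, beside 1.9% and 3.16% of all genes called. The list's median change was -0.20 log2 units, against -0.16 for all genes. By clone, C1 had 2 higher and 1 lower, beside 3.44% and 4.05% of all genes, C11 had 1 and 0, beside 0.917% and 0.789%, C43 had 2 and 0, beside 2.03% and 2.02%, and C50 had 2 and 4, beside 3.62% and 10%. Without C50 replicate 1 the average had 4 higher and 3 lower, beside 5.07% and 10.5% of all genes, and C50 had 2 higher and 0 lower, beside 1.47% and 2.82%. Gnas (Gs alpha) was 660 to 802 TPM in the GFP-negative libraries against 725 to 804 in vehicle, Adcy6 was 13.4 to 23.4 against 18.6 to 26.0, and Creb1 was 11.98 to 22.9 against 21.1 to 22.8, none of them called by the average.

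Of 20 textbook targets of vasopressin and of the corticosteroids that act beside it, 17 were tested, Aqp2 rose by the average and Scnn1g, Tsc22d3, Hsd11b2 and Fos fell, beside 1.9% of all genes called higher and 3.16% lower. With C50 replicate 1 left out, 4 rose and 6 fell, beside 5.07% and 10.5%. Scnn1g, the gamma subunit of the epithelial sodium channel, was 23.2 to 28.4 TPM in vehicle and 7.42 to 15.9 in the GFP-negative libraries (average -1.15 ± 0.15 SE log2 units, adjusted p = 0.0051), and it fell in WT cells as well, to 13.3 to 19.0. Fos was 3838 to 4257 TPM in vehicle, 1813 and 1766 in C1, 3107 and 3400 in C11, 1857 and 1828 in C43, and 1515 and 2377 in C50, and fell in C1, C43 and C50 but did not pass the test in C11. It is 1 of 28 tested genes of an immediate early and dissociation list, of which 3 rose and 11 fell by the average, beside 1.9% and 3.16% of all genes, and 9 fell in WT cells with dDAVP, beside 6.51%. When C50 replicate 1 was dropped, 3 rose and 19 fell, beside 5.07% and 10.5%. Of 21 tested principal cell genes, Aqp2, Krt8, Krt18 and Krt19 rose and Aqp4, Scnn1g, Hsd11b2, Gata3, Cdh16 and Hoxd8 fell by the average, beside 1.9% and 3.16% of all genes. Without C50 replicate 1, as many of them rose and more fell, while calls over all genes grew in both directions.

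Cell cycle lists set the GFP-negative cells beside WT cells with dDAVP. Of 30 S phase genes, 22 fell in WT cells, beside 6.51% of all genes, and by the average of the clones Cdt1 fell and none rose, beside 3.16% lower and 1.9% higher. Of 30 G2 and M phase genes, 21 fell in WT cells, and by the average Mki67 fell and none rose, beside the same shares, while C50 had 7 higher, beside 3.62%. With C50 replicate 1 left out, more genes of both lists fell by the average, in C11 and in C43, and more G2 and M phase genes fell in C1. Lower calls over all genes grew in these comparisons as well. In C50 fewer S phase genes were then lower and fewer G2 and M phase genes higher. The medians were -0.24 and -0.22 log2 units for the average, against -0.47 and -0.60 in WT cells. In C1, C11, C43 and C50 the S phase median was -0.02, -0.16, -0.27 and -0.35. The G2 and M phase median was -0.31, -0.32, -0.20 and 0.02, and that of all genes -0.15, -0.06, -0.13 and -0.29. Calls in other lists were spread unevenly over the clones, and differences between clones were not tested for a list. C1 had 8 of 22 NF-kB genes, 10 of 28 glycolysis and hypoxia genes and 6 of 14 mesenchymal genes higher, beside 3.44% of all genes, and 3 of 24 interferon-stimulated genes lower, beside 4.05%. C43 had 8 of the interferon-stimulated genes higher, beside 2.03%, and C50 had 6 of them lower, beside 10%. C50 had 5 of the glycolysis and hypoxia genes higher, beside 3.62%, and C11 had 3 of the NF-kB genes higher, beside 0.917%. When C50 replicate 1 was dropped, C1 had 11 NF-kB, 16 glycolysis and hypoxia and 8 mesenchymal genes higher, beside 7.68%, and 8 interferon-stimulated genes lower, beside 15.3%. C43 then had 11 interferon-stimulated genes higher, beside 6.49%, and C50 had 4 lower, beside 2.82%, and 5 glycolysis and hypoxia genes higher, beside 1.47%.

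RefSeq promoters (GRCm38.p6, 250 bases before to 50 after each start) matched 56 of the 82 genes by symbol, with 74 promoters. The short core TGACG, on either strand, was in 22 of the 74 (29.7%), and in 31.6% of the 12056 promoters of all tested genes. The full element TGACGTCA, which contains the short core, was in none of the 74 and in 3.09% of all. Promoters of genes raised in all 4 clones held the short core in 4 of 19, and those of genes raised in none in 1 of 8. The AP-1 motif TGANTCA was in 6.76% against 5.02% of promoters of all tested genes, and the NF-kB motif in 6.76% against 5.49%. The HNF1 motif was in none of either.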

How the data were processed

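Cells were sorted or left unsorted as labelled, and RNA was made into SMART-Seq HT and Nextera XT libraries read as paired-end 50 bp, per the labels' protocols. STAR and RSEM are named in the submitters' processing notes. The TPM values were made by the authors and used as deposited; genome build and read depth are not given in the sources used here.

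Lines of the table (55415) that share a symbol (980 lines, 79 symbols) were summed. log2(TPM + 1) was analysed for genes with a mean of at least 1 TPM over the libraries of each fit, so fold changes of low genes are understated. limma 3.58.1 (R 4.3.3, with statmod 1.5.0, mean-variance trend) fitted 1 mean per group to the 11 libraries, and contrasts took each clone, or the average of the 4, minus vehicle, with an F-test between clones. WT dDAVP against vehicle (6 libraries) and the GFP-negative libraries against WT dDAVP were fitted separately. Calls are Benjamini-Hochberg adjusted p under 0.05 over all genes of a fit. Exact permutation tests used scipy 1.17.1, and figures matplotlib 3.10.9. The scripts were tested on simulated data.

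Replicate numbers were not taken to pair the libraries: same-numbered libraries' deviations correlated between -0.21 and 0.25, with 4 of 20 pairs over 0.1. The deviations of a clone's libraries mirror each other, so each pair of clones gave the same value for both numbers. The pairs over 0.1 were C1 with C50 and C11 with C50. The members and gene lists were chosen with earlier results of these data known. Genes named by rule were Aqp2 and GFP, the 20 largest rises and 10 largest falls in WT cells, the 10 largest rises and falls shared by all 4 clones, the pathway and textbook lists with the 4 most changed members of each other list, the 5 responsive genes most lowered in a clone, and the 5 with the smallest F-test p (mean TPM of at least 5). Other genes, such as those listed by clone pattern, were named after their values were seen. Some genes are not reported here by name.

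Alternatives were another pseudocount, other filters, median-ratio and quantile scaling, other variance settings, all 22 libraries, a replicate block, a covariate of detected genes, clone means, and leaving out each library or clone. One more, chosen after seeing the data, kept only libraries with at least 22000 genes above 0.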

Additional observations from a re-analysis of the deposited data

Results flagged for a closer look

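Of 109 genes named by rule, 43 changed by different amounts in the 4 clones (limma F-test, adjusted p under 0.05, beside 9.48% of all genes). Part of this count is fixed by the choice of genes: 7 were named for their F-test or for a fall in a clone, and all 7 are among the 43, while 36 of the other 102 are. The values that follow are the distance between the highest and the lowest clone's change, in log2 units. Among transcripts that rose with dDAVP in WT cells the distance was 5.02 for Gsdmc2, 4.53 for Aqp2, 3.81 for Gsdmc4, 3.52 for Sult1c2, 3.48 for Cxcl5, 3.16 for Adh7, 2.80 for Tmprss4, 2.73 for Ramp3, 2.51 for Inmt, 2.43 for Cited1 and 2.30 for Lgals9. It was 1.98 for Cebpd, 1.86 for Abcc3, 1.81 for Sprr2g, 1.56 for Mt2, 1.34 for Aqp5, 1.27 for Lypd3, 1.21 for Pde4b, 0.99 for Selenbp1, 0.84 for Ndrg1 and 0.74 for Krt23. Cited1, Cebpd, Pde4b, Selenbp1 and Krt23 were raised in all 4 clones, so there the clones differed in size and not in direction.

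Among genes that fell, in WT cells or in all 4 clones, the distance was 2.44 for Fras1, 2.42 for Rap1gap, 2.28 for Srpk3, 2.25 for Ackr3, 1.77 for Hsd11b2, 1.15 for Rasl11a, 0.63 for the chaperone gene Dnajb1 and 0.48 for Rasl11b. Genes named from the lists gave 3.55 for the interferon-stimulated Ifi44, 2.69 for Fbln5, 1.73 for Aqp4, 1.16 for the aldosterone-regulated kinase Sgk1, 0.98 for the chemokine Cxcl1, 0.96 for Pkig, 0.86 for Fos, 0.80 for Tsc22d3, 0.78 for Fdps, 0.71 for Cdt1 and 0.61 for Gng12. The glycolytic genes Aldoa, Tpi1 and Ldha gave 0.77, 0.53 and 0.43.

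A single library lay apart from the other 7 GFP-negative libraries for 12 genes, by a gap past Dixon's critical value for 8 libraries. In C50 replicate 1 this held for Gnb1 (gap 0.792 of the range), Grk6 (0.781), Prkacb (0.724), Scnn1a (0.655), Sik3 (0.647), Usp10 (0.629), Pkia (0.619), Crtc2 (0.608), Prkar2a (0.607), Soga1 (0.575) and Akap13 (0.542). In C50 replicate 2 it held for Gsta4 (0.617). Chance flags about 1 in 20 genes.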

How the results depend on the processing

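Counts of called genes depended strongly on the settings, and the cause was not tested. The average, C1, C11, C43, C50 and the F-test called 673, 996, 227, 539, 1814 and 1261 genes. With all genes above 0 tested they called 252, 506, 132, 273, 439 and 677, with all 22 libraries 2277, 2168, 565, 1467, 5168 and 3529, and with the replicate block 98, 251, 68, 160, 169 and 464. Without clone C50 the first 4 and the F-test called 2344, 3125, 725, 2555 and 2670. Without clone C43, the average called 260, C1 643, C11 146 and C50 830. Without clone C11, C1 called 620, C43 319, C50 721 and the F-test 683. Without clone C1, C50 called 974 and the F-test 358. A covariate of detected genes gave 1014 in C43, 3655 in C50 and 2563 by the F-test, which quantile normalization put at 2031. The 6 libraries with more genes detected gave 3 by the average, 0 in C11, 109 in C43, 102 in C50 and 192 by the F-test, and could give no value for C1. Clone means as replicates gave 30 by the average. Leaving out 1 library gave 146 to 5807, 167 to 3113, 69 to 722, 120 to 2527, 296 to 7547 and 499 to 7217. The lowest average came without vehicle replicate 1 and the highest without C50 replicate 2.

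Responsive genes raised were 50 by the average, 34, 43, 60 and 33 in C1, C11, C43 and C50, and 16 in all 4. The replicate block gave 27, 18, 18, 35, 17 and 4. With no minimum change, which makes 320 genes responsive in place of 85, the counts were 114, 94, 89, 129, 82 and 28. All genes above 0 gave 33 by the average, 26 in C11 and 8 in all 4. Median-ratio scaling, with 118 responsive genes, gave 80 by the average and 59 in C50, and quantile normalization, with 103, gave 52 in C50. Clone means gave 8 by the average. The libraries with more genes detected gave 1 by the average, 0 in C11, 12 in C43 and 7 in C50. Leaving out 1 library gave 32 to 62, 20 to 43, 18 to 56, 35 to 68, 22 to 36, and 6 to 21 in all 4.

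The Aqp2 average of 2.63 log2 units was not called with clone means. In the libraries with more genes detected, Aqp2 in C11 (1.83) and GFP by the average (3.11) and in C11 (2.84) were not called, and the Sult1c2 average, called higher with all 11 libraries, was -0.11 and not called. No other called value among the named genes changed sign, while uncalled values near 0, such as Aqp2 in C1, did. TPM carries no read counts, so counting error cannot be given.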
